A study of Mus musculus with 4 samples.

Results

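The kainate receptor genes were followed in RNA bound by the small ribosomal subunit protein RPS2 and in total RNA of cultured mouse cortical neurons. They are the 5 pore-forming subunit genes Grik1, Grik2, Grik3, Grik4 and Grik5 and the 2 auxiliary subunit genes Neto1 and Neto2. They were chosen by name, through the Ensembl identifier and its GENCODE M21 symbol, and all 7 were found among the 31053 genes of the count tables. All 4 libraries came from wild-type (WT) primary cortical neurons, prepared per the study's methods from C57BL/6J embryos at embryonic day 18. In 2 libraries RNA was crosslinked to protein, trimmed with RNase I and pulled down with an antibody to endogenous RPS2 (eCLIP, RPS2 IP replicates 1 and 2). The other 2 were total RNA replicates 1 and 2, taken from the samples ahead of the pulldown. By the labels, rRNA was depleted in the IP libraries, whereas total RNA had no treatment, so effects of that step and of the IP cannot be told apart. The study divides IP by total RNA counts per gene to obtain an eCLIP-based translational efficiency, and the ratio given here for each gene is of counts scaled by library (TMM), so its values are not those quotients. No source used here says whether the 2 replicates came from separate cultures, so p-values measure only the spread between these libraries.

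Kainate receptors are ionotropic glutamate receptors made of 4 subunits. GluK1, GluK2 and GluK3, encoded by Grik1, Grik2 and Grik3, can form channels on their own and bind kainate with lower affinity. GluK4 and GluK5, encoded by Grik4 and Grik5, bind kainate with higher affinity and reach the surface as functional channels only together with a GluK1, GluK2 or GluK3 subunit. Neto1 and Neto2 are single-pass membrane proteins that slow the channels' kinetics and influence their synaptic placement. In cortex these receptors act on both sides of the synapse, where they carry slow currents and tune transmitter release.

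The pore loop is shown because GluK1 and GluK2 carry the Q/R site there, a glutamine codon that RNA editing can recode. The capitals mark the CAG codon aligned with that site in each gene. Each line is 30 coding bases read from the annotated M21 transcripts (GRCm38, mm10), 5′ to 3′.
Grik1: gttggagctctcatgCAGcaaggatcggag
Grik2: gttggagctctcatgCAGcaaggttctgag
Grik3: atgggctccctgatgCAGcaaggatctgaa
Grik4: gttggaggcttcatgCAGcaaggctccact
Grik5: gtgggtggcttcatgCAGcagggctcggag
Against Grik2, the window of Grik1 differed at 2 bases and those of Grik3, Grik4 and Grik5 at 8 each. The windows of Grik4 (chr9:42547611-42547640, minus strand) and Grik5 (chr7:25022485-25022514, minus strand) lie within 1 exon. Those of the other subunits cross an intron, and their CAG codons stand at chr16:87940542-87940544 (Grik1, minus strand), chr10:49244329-49244331 (Grik2, minus strand) and chr4:125691207-125691209 (Grik3, plus strand). The tables hold counts per gene, so editing at these codons was not measured. Over the whole transcripts, between 0 and 1.12% of the 30-base words of a member also occurred in another gene, and 0 to 18 of these words occurred in another member.

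Grik5 (ENSMUSG00000003378, chromosome 7, 25009849 to 25072346, minus strand) was by far the most abundant of these mRNAs. Levels are given as CPM, the counts scaled to a common library size by TMM, per kilobase of counted exons (CPM per kb), since only a value per length can be compared between genes. Grik5 stood at 60.2 and 37.8 CPM per kb in total RNA replicates 1 and 2 and at 40.9 and 27.6 in RPS2 IP. In total RNA it lay at percentile 95.8 of the 12336 genes that passed the filter on low counts, as all 7 members did. Grik4, the other high-affinity subunit (ENSMUSG00000032017, chromosome 9, 42518135 to 42944493, minus strand), stood at 4.82 and 3.03 CPM per kb in total RNA and at 3.20 and 2.501 in IP. In every library Grik5 exceeded Grik4, with a ratio of 12.5 and 12.5 in total RNA and of 12.8 and 11.04 in IP.

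Among the low-affinity subunits, Grik3 (ENSMUSG00000001985, chromosome 4, 125490700 to 125714173, plus strand) was highest, at 6.45 and 3.96 CPM per kb in total RNA and 5.61 and 2.34 in IP. Grik1 (ENSMUSG00000022935, chromosome 16, 87895900 to 88290265, minus strand) was at 1.99 and 1.35 in total RNA and 1.92 and 1.19 in IP. Grik2 (ENSMUSG00000056073, chromosome 10, 49094833 to 49788766, minus strand) was at 1.26 and 1.15 in total RNA and 1.39 and 0.882 in IP. Under TMM, Grik2 is the one low-affinity subunit whose total RNA libraries lay close together, with an SD of 0.075 around 1.21 CPM per kb (n = 2). With library size alone it lay furthest apart. Its log2 difference of total RNA replicate 1 from replicate 2 was then −0.41, beside 0.02 for Grik1 and 0.16 for Grik3. The place of Grik2 depends on the length used, because its coding sequence makes up 20.6% of its counted exons, against 56.8% for Grik5.

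Of the auxiliary subunits, Neto1 (ENSMUSG00000050321, chromosome 18, 86394952 to 86501897, plus strand) was the second most abundant member, at 13.4 and 6.05 CPM per kb in total RNA and 14.3 and 7.25 in IP. Neto2 (ENSMUSG00000036902, chromosome 8, 85636588 to 85700924, minus strand) was at 1.89 and 0.617 in total RNA and 1.66 and 1.03 in IP. Neto2 rested on the fewest reads, with 23 counts in total RNA replicate 2 against 130 for Neto1. Neto1 exceeded Neto2 by a ratio of 7.11 and 9.81 in total RNA and of 8.59 and 7.07 in IP. The counted exons of Neto1 end before its longest annotated transcript, which M21 carries on to position 86506718, so reads of that 3′ end were not counted.

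By the mean of the total RNA libraries the order ran from Grik5 through Neto1, Grik3, Grik4, Grik1 and Neto2 to Grik2. Taken over both replicates, the libraries of neighbours in that order overlapped, except between Grik5 and Neto1 and between Grik4 and Grik1. The order of means was the same in IP, where the libraries of Neto1 and Grik3 also stood apart. Within each single library Neto1 lay above Grik3. In replicate 2 the order differed in places. Neto2 (0.617 CPM per kb) lay below Grik2 (1.15) in total RNA, and Grik3 (2.34) below Grik4 (2.501) in IP.

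**Figure D1:**
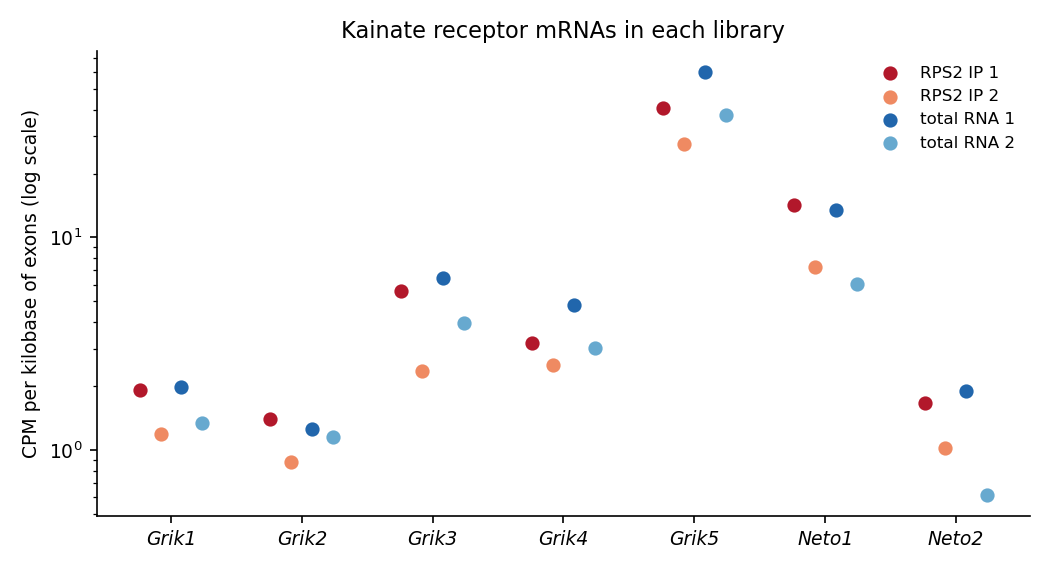
Level of each kainate receptor gene in the 4 libraries, in CPM per kilobase of counted exons on a log scale; each point is 1 library. Grik5 lies between 27.6 and 60.2, above every library of every other member, and the replicate 1 library lies above the replicate 2 library of the same kind for each gene.

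The composition of the pore-forming mRNAs was therefore set by Grik5. By level per kilobase, Grik5 made up 80.6% and 80.0% of the sum of Grik1 to Grik5 in total RNA and 77.1% and 80.0% in IP. The mean in total RNA was 80.3% ± 0.43 (SD, n = 2). Grik3 followed with 8.64% and 8.36% in total RNA, and its IP shares of 10.6% and 6.78% lay on either side of these. Grik4 held 6.45% and 6.41% in total RNA and 6.04% and 7.24% in IP. Grik5 remained the major subunit with any length used, at 71.1% with coding length, 81.6% with the longest transcript and 72.1% by counts alone.

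Grik1 and Grik2 were the minor subunits. Grik1 held 2.66% and 2.84% in total RNA against 3.63% and 3.44% in IP, and Grik2 held 1.69% and 2.44% against 2.63% and 2.55%. For both genes each IP share lay above each total RNA share. With 2 libraries against 2, an exact permutation test cannot give a p below 0.333, and no other test of these shares was run. Counting error alone spans it in part: as a share of raw Grik1 to Grik5 counts, Grik1 had a 95% Wilson interval of 2.55 to 4.28% in total RNA replicate 2 and of 3.29 to 4.93% in IP replicate 2. For Grik2 in replicate 1 the intervals were 3.13 to 4.87% in total RNA and 5.24 to 6.65% in IP, which do not overlap, whereas in replicate 2 they were 4.58 to 6.80% and 4.98 to 6.95%. These intervals cover counting error only. The shares of a library add up to a whole, so a lower level of Grik5 raises the other shares by arithmetic. By level, the log2 ratio of IP to total RNA in replicates 1 and 2 was −0.05 and −0.17 for Grik1. For Grik2 it was 0.14 and −0.38. Neither gene was thus higher in IP in both replicates.

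Summed by class, high-affinity mRNA (Grik4 and Grik5) exceeded low-affinity mRNA (Grik1 to Grik3) by a ratio of 6.70 and 6.33 in total RNA and of 4.94 and 6.82 in IP, per kilobase. The IP libraries lay on either side of the total RNA libraries, so the groups overlapped.

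**Figure D2:**
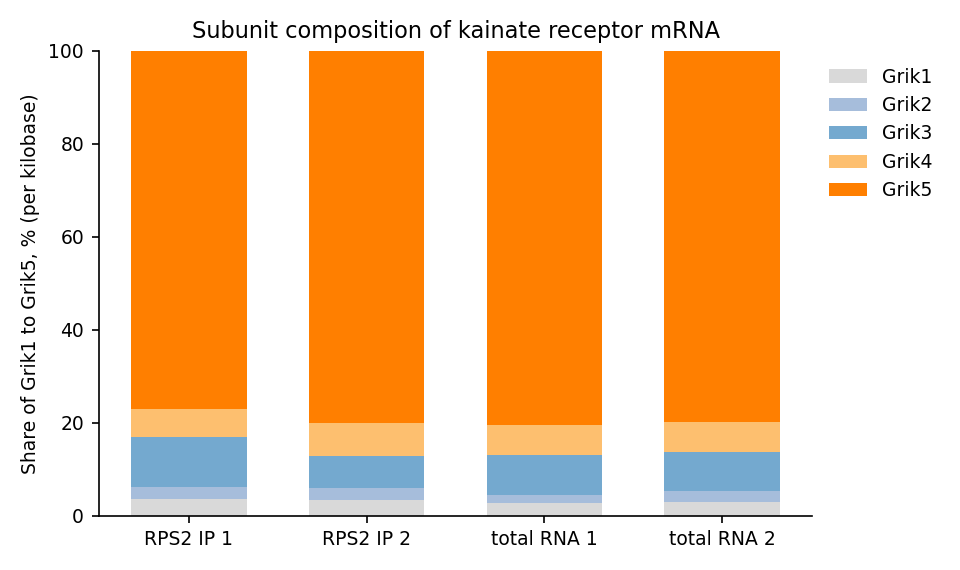
Share of each subunit in the sum of Grik1 to Grik5 per kilobase of counted exons, in percent, with 1 bar per library. Grik5 takes 77.1 to 80.6% of every bar, and the remaining shares keep close to one another between total RNA replicates.

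Library totals ran from 4899718 counts in total RNA replicate 2 to 16460545 in IP replicate 1, and the members together held 1817 to 5157 counts. A single non-coding gene, Gm42418, took 42.6% and 39.8% of the counts in replicate 1 (IP and total RNA) and 27.9% and 15.3% in replicate 2. The neuron markers Rbfox3, Tubb3, Map2 and Syn1 were present in every library, with a summed level of 485 to 603 CPM per kb. Markers of other cells were also present, most of all those of astrocytes, with a sum of 130 to 375 CPM per kb, and Cldn5, an endothelial marker, had 0 counts in all 4 libraries.

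Grik5 was less abundant in RPS2 IP than in total RNA of the same replicate. Its counts were 2923 and 1589 in IP and 1397 and 1190 in total RNA, which is 211 and 143 CPM in IP against 311 and 196 CPM in total RNA. IP was thus lower in both replicates, although IP replicate 1 lay above total RNA replicate 2. The log2 ratio of IP to total RNA was −0.56 in replicate 1 and −0.45 in replicate 2. Without the replicate number in the model, the log2 fold change of −0.52 ± 0.33 (SE) did not pass the threshold (edgeR quasi-likelihood test, adjusted p = 1). With the replicate number as a block it was −0.51 ± 0.10, with a 95% interval of −0.70 to −0.31 and an adjusted p of 1.86e-05 (edgeR), which is 0.703 of the total RNA level. An offset for GC content and length in the same block fit ended this call, at −0.22 (edgeR, adjusted p = 0.184), as given further on. With the block only 1 residual degree of freedom remains for a gene. The prior degrees of freedom were estimated as infinite, so the error was taken wholly from the trend over all genes. The SE, interval and p-value of an edgeR block fit here therefore do not measure the spread of the gene itself.

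Grik4 was at 19.1 and 14.9 CPM in IP and 28.7 and 18.1 CPM in total RNA. Its log2 ratio was −0.58 in replicate 1 and −0.27 in replicate 2. The fold change with the block was −0.44 ± 0.17, close to that of Grik5, but it missed the threshold (edgeR, adjusted p = 0.0619). Grik4 passed in 1 alternative, the fit with the block and no TMM scaling (−0.52, edgeR adjusted p = 0.0473).

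Of the low-affinity subunits Grik3 alone was called. It stood at 50.4 and 21.02 CPM in IP and 57.9 and 35.5 CPM in total RNA, with a log2 ratio of −0.20 in replicate 1 and −0.75 in replicate 2. IP was lower in both replicates, by unequal amounts, and the 2 kinds of library overlapped. With the block the log2 fold change was −0.45 ± 0.13, with an interval of −0.71 to −0.19 and an adjusted p of 0.00724 (edgeR), whereas without it the value was −0.38 ± 0.48 (adjusted p = 1). This call too ended with the offset, at −0.28 (edgeR, adjusted p = 0.197). DESeq2 with the block did not call Grik3 (adjusted p = 0.165) but did call Grik5 (adjusted p = 0.00117).

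Grik1 was at 12.9 and 7.99 CPM in IP and 13.4 and 9.04 CPM in total RNA. Its log2 ratios of −0.05 and −0.17 were small, and the first became 0.0068 when libraries were scaled by their totals without Gm42418. Grik2 was at 18.4 and 11.7 CPM in IP and 16.7 and 15.3 CPM in total RNA, and its replicates went opposite ways, at 0.14 and −0.38. With the block neither was called, and the 95% intervals of the log2 fold change reached from −0.57 to 0.36 for Grik1 and from −0.50 to 0.27 for Grik2. The interval of Grik1 includes the −0.51 of Grik5, and that of Grik2 nearly reaches it. Since such intervals do not measure the spread of the gene itself, they set no bound on a decrease in either gene.

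Neither auxiliary subunit was called. Neto1 was at 50.4 and 25.6 CPM in IP and 47.4 and 21.4 CPM in total RNA, and it was the only member above total RNA in both replicates, with log2 ratios of 0.09 and 0.26. Its fold change with the block was 0.16 ± 0.14 (interval −0.11 to 0.43). Neto2 was at 10.2 and 6.29 CPM in IP and 11.6 and 3.78 CPM in total RNA, with log2 ratios of opposite sign (−0.18 and 0.70) and an interval of −0.36 to 0.73.

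In counts, 0 of 7 members passed the threshold without the block, and 0 had an unadjusted p under 0.05; 0 of the 12336 genes tested were called either, with 349 at an unadjusted p under 0.05 (edgeR), and DESeq2 called 0 members. With the block 2 of 7 were lower in IP and 0 higher, where the background over all genes tested was 7.55% lower, 6.63% higher and 14.2% in either direction. IP lay below total RNA in both replicates for 4 of 7 members, against 32.2% of all genes, and above it in both for 1 of 7, against 34.3%. The replicates lay on opposite sides for 2 of 7, against 33.5%. For 0 of 7 did both IP libraries lie below, or above, both total RNA libraries, against 14.9% and 16.9% of all genes. The median log2 fold change with the block was −0.12 over the members and 0.01 over all genes tested.

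**Figure D3:**
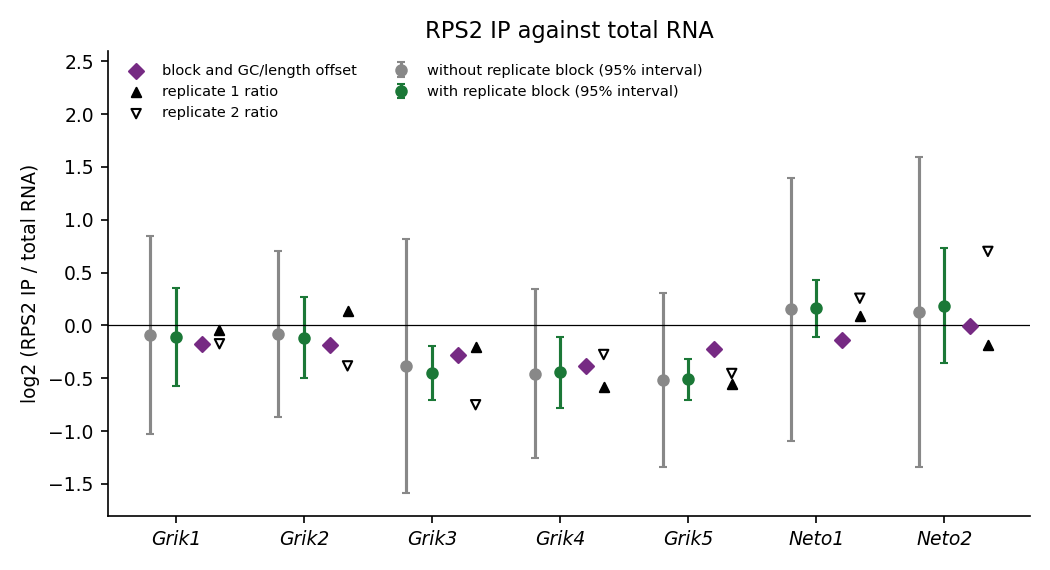
Log2 ratio of RPS2 IP to total RNA for each gene. Circles with bars are edgeR fold changes with 95% intervals without (grey) and with (green) the replicate block, diamonds are the block fit with an offset for GC content and length, and triangles are the 2 within-replicate ratios. With the block the intervals of Grik3, Grik4 and Grik5 lie below 0, while the diamonds of Grik3 and Grik5 lie nearer to 0 than the circles.

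The members span nearly the whole range of base composition of mouse genes, and the IP ratio as fitted over all genes changed with it. The annotated transcripts of Grik5 had 60.8% GC, percentile 96.9 of the genes tested, and those of Grik3 and Grik4 had 54.2% and 53.3%. Neto1 and Neto2 stood at the other end, with 39.96% and 38.2% GC (percentiles 2.53 and 0.75), and Grik1 and Grik2 had 47.1% and 41.6%. The median gene had 50.5%. A smooth curve of the log2 ratio on GC content and exonic length, fitted over 12328 genes, gave −0.35 and −0.22 at the values of Grik5 in replicates 1 and 2, and 0.32 and 0.29 at those of Neto1. For Neto1 the GC content includes the 3′ end that was not counted. The curve gave −0.17 and −0.17 for Grik3, −0.07 and −0.05 for Grik4 and 0.19 and 0.18 for Neto2. For Grik1 it gave 0.06 and 0.07, and for Grik2 0.09 and 0.04. The log2 fold changes of Grik1 and Grik2 with the block went the other way, at −0.11 and −0.12.

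With that curve as an offset in the block fit, 0 of 7 members were called. The log2 fold change of Grik5 became −0.22 (edgeR, adjusted p = 0.184) and that of Grik3 −0.28 (adjusted p = 0.197). Grik4 changed least of the 3, to −0.38 (adjusted p = 0.167), and Neto1 turned to −0.14. An offset for GC content alone, added after the data were seen, left Grik5 at −0.30 (edgeR, adjusted p = 0.0302) and Grik3 at −0.43 (adjusted p = 0.0133). Whether the ratio of these genes follows from their composition was not tested beyond these fits.

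**Figure D4:**
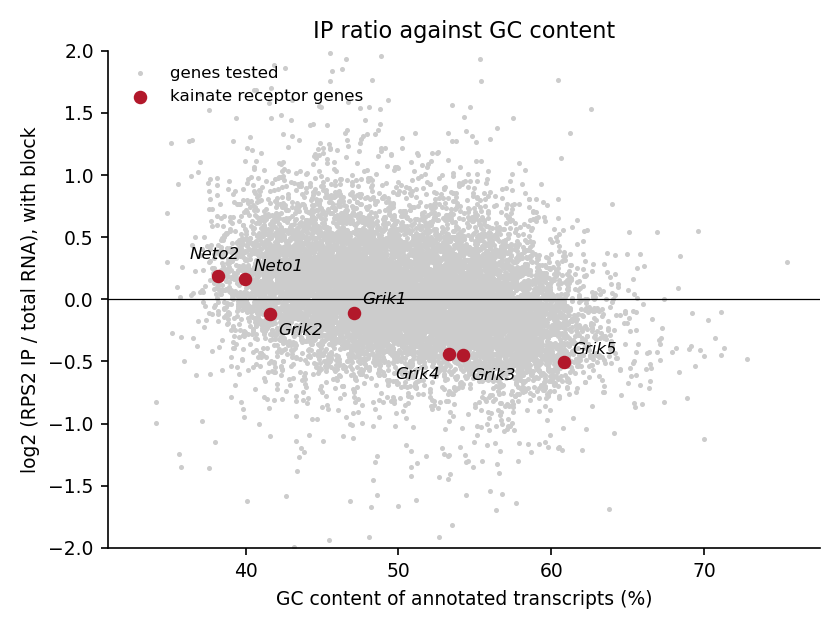
Log2 ratio of RPS2 IP to total RNA with the replicate block (vertical) against the GC content of the annotated transcripts in percent (horizontal), with 1 point per gene tested and the members in red. The vertical axis stops at −2 and 2 and leaves out 28 genes. Neto1 and Neto2 lie at the low-GC end above 0, and Grik5 lies at the high-GC end at −0.51.

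AMPA receptors carry most fast excitatory transmission and NMDA receptors act as coincidence detectors. How the kainate receptor mRNAs compared with the AMPA family depended on the length used. Per kilobase of counted exons, the sum of Grik1 to Grik5 was 74.7 and 47.3 CPM per kb in total RNA, beside 69.2 and 59.3 for Gria1 to Gria4 and 201 and 199 for the NMDA subunits. In IP the kainate sum was 53.0 and 34.5, the AMPA sum 75.6 and 57.4 and the NMDA sum 197 and 186. The ratio of the AMPA to the kainate sum was 0.926 and 1.25 in total RNA and 1.43 and 1.66 in IP; an exact permutation test of 2 against 2 cannot go below 0.333. In total RNA the ratio was 1.61 and 2.13 per coding length, 1.02 and 1.37 per longest transcript and 1.49 and 1.98 by CPM with no length, so AMPA mRNA was the higher in replicate 1 under these 3 and not under the first. Grik5 alone, at 60.2 and 37.8 CPM per kb of counted exons in total RNA, stood above Gria1, at 31.4 and 28.8. Per coding length it was at 105.9 and 66.6 beside 97.8 and 79.9 for Gria2, so that it was higher in replicate 1 and lower in replicate 2. The other lengths were chosen after the data were seen.

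With the block 0 of 4 AMPA subunits were called, against 14.2% of all genes tested in either direction, and their median log2 fold change was 0.14. Of the NMDA subunits 6 of 7 passed the filter, their median was −0.07, and Grin2d, 1 of the 6, was called lower (−0.43 ± 0.12, edgeR adjusted p = 0.00455), against 7.55% of all genes. Grin2d encodes the GluN2D subunit, which is known for slow deactivation. Its counts were 843 and 398 in IP and 423 and 247 in total RNA. No difference between the families was tested.

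Proteins that edit, anchor, move or modify kainate receptors formed a list of 29 genes, of which 28 were in the tables and passed the filter. With the block 4 of 28 were higher in IP, against 6.63% of all genes tested, and 1 of 28 lower, against 7.55%; without it 0 were called in either direction (edgeR). Snap25, a SNARE protein that has been tied to GluK5 endocytosis, rose by 0.37 ± 0.10 on the log2 scale (edgeR, adjusted p = 0.00273). Sdcbp, which encodes the PDZ protein syntenin, rose by 0.52 ± 0.13 (adjusted p = 0.000847), the actin regulator Pfn2 by 0.38 and the calcium sensor Vsnl1 by 0.38. Grip1, a PDZ scaffold of AMPA and kainate receptors, fell by 0.39 (adjusted p = 0.024). The list's median was 0.02, beside 0.01 over all genes tested.

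These genes also differed between the replicates. All 7 members were higher in replicate 1 than in replicate 2, in IP and in total RNA alike, against 38.4% of the genes tested, and 0 were lower in both, against 37.4%. Both replicate 1 libraries lay above both replicate 2 libraries for 7 of 7, against 28.2%. The log2 difference of replicate 1 from replicate 2 was 0.57 in IP and 0.67 in total RNA for Grik5, and 0.97 and 1.14 for Neto1. For Grik3 it was 1.25 and 0.70. It was smallest for Grik2 in total RNA, at 0.13, and largest for Neto2 in total RNA, at 1.56, where replicate 2 held 23 counts. With 1 replicate of each number this comparison has no test.

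The sign of this difference depends on scaling, in alternatives chosen after the data were seen. With library size alone the median gene itself moved by −0.40 in IP and −0.52 in total RNA; Grik2 turned to −0.41 in total RNA and Grik4 to −0.06 in IP, and 5 of 7 members were higher in replicate 1 in both kinds of library, against 14.6% of the genes tested. Both replicate 1 libraries then lay above both replicate 2 libraries for 2 of 7, against 10.4%. Relative to the median gene all 7 were higher in both, against 37.8% to 37.9% of the genes tested. A scaling shifts all genes of a library nearly alike, so this measure could hardly differ between the 4 scalings compared. It therefore does not show that the difference holds under any scaling. Under TMM 4 of 4 AMPA and 5 of 6 NMDA subunits were also higher than the median gene in both.

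Markers of several cell types were higher in replicate 1 under TMM. All 5 astrocyte markers were higher in replicate 1, and their sum was 375 and 327 CPM per kb in replicate 1 (IP and total RNA) against 132 and 130 in replicate 2. Gfap, the astrocyte intermediate filament, stood at 172 and 161 against 28.7 and 27.0. The 4 microglia markers summed to 40.7 and 38.1 against 3.58 and 2.502, mostly from C1qa (35.9 and 33.0 against 2.76 and 1.90). P2ry12 among them was near the floor throughout, with 2 counts in each replicate 1 library and 0 in both replicate 2 libraries. The summed neuron markers were 485 and 500 in replicate 1 and 513 and 603 in replicate 2, and 1 of the 4 was higher in both replicate 1 libraries. The excitatory neuron markers summed to 169 and 175.7 against 179.9 and 167. The GABAergic markers summed to 406 and 349 against 294 and 307, with 5 of 7 higher in both replicate 1 libraries; Gad1 went the other way, at 63.2 and 55.4 against 70.4 and 70.4. Other lists with low sums were also higher in replicate 1. Dividing progenitor markers, nearly all from Sox2, were at 20.1 and 26.5 against 5.57 and 6.92 (3 of 4 higher). Of that list, Mki67 had 0 to 4 counts and Top2a 1 to 8 counts per library. Endothelial and mural markers, nearly all from Pdgfrb, were at 4.30 and 3.88 against 1.00 and 1.13 (1 of 4). Cajal-Retzius markers, nearly all from Reln, were at 15.01 and 15.96 against 7.21 and 7.38 (1 of 3). Oligodendrocyte lineage markers were at 18.4 and 15.9 against 14.04 and 13.6 (4 of 6). Among them Mbp went the other way, at 4.24 and 3.90 against 5.27 and 4.89, and Mog had at most 1 count per library. The part of these cells in the difference of the kainate receptor genes was not tested. In such bulk samples, fewer cells of a type and less RNA per cell cannot be told apart.

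**Figure D5:**
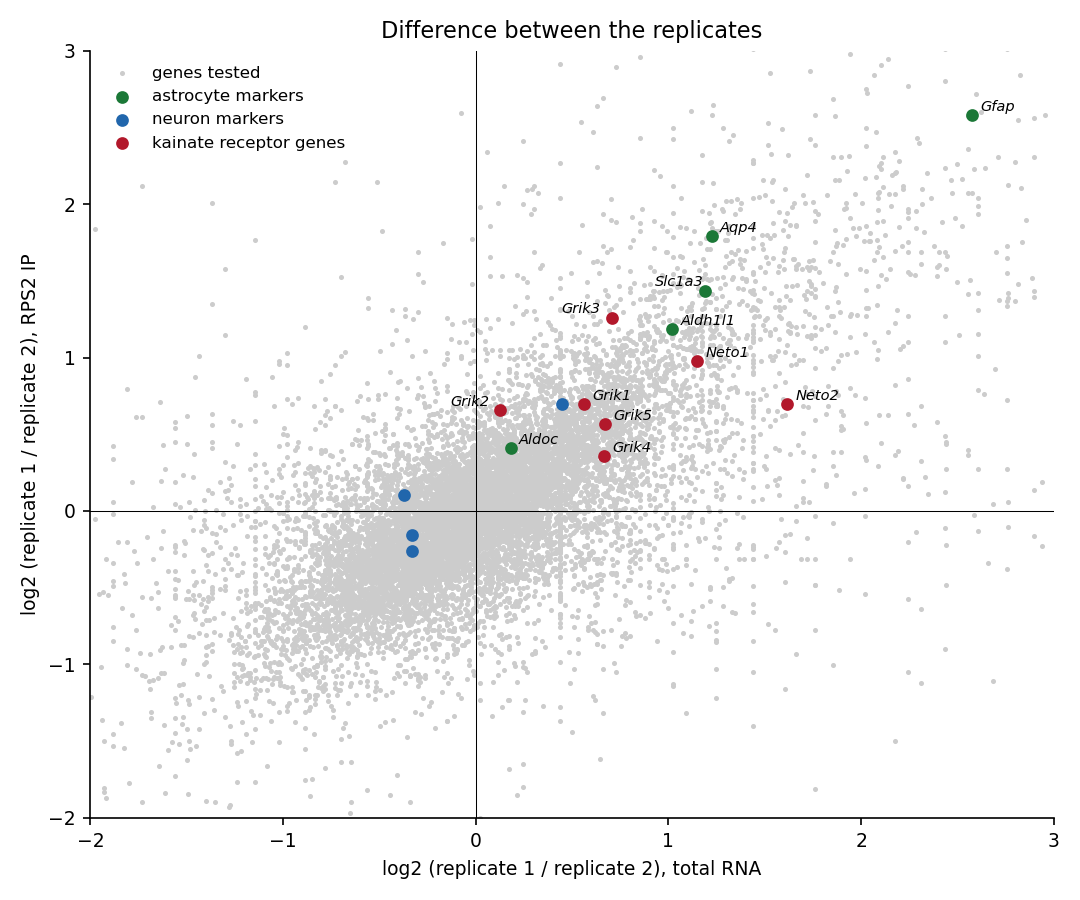
Log2 difference of replicate 1 from replicate 2 in total RNA (horizontal) and in RPS2 IP (vertical), with 1 point per gene tested that had counts in all 4 libraries, the members in red, astrocyte markers in green and neuron markers in blue. The axes run from −2 to 3 and leave out 255 genes. All 7 members lie above 0 on both axes, as do the 5 astrocyte markers, up to Gfap.

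Genes with the most similar profile were sought for the 3 members with the highest counts, by Euclidean distance of centred log2 CPM over the 4 libraries among 5002 genes with at least 100 counts in each. Closest to Grik5 were Klhl29 (0.0178), Cacna1a (0.0314), which encodes the pore of P/Q-type calcium channels, and Ajap1 (0.0525), where the median candidate lay at 0.84. Closest to Grik3 were Kcnj9 (0.0913), a subunit of G-protein-gated potassium channels, Arhgap21 (0.134) and Aldh2 (0.144). Closest to Neto1 were Egfr (0.0694), Igfbp4 (0.0798) and Fkbp9 (0.100). Over 4 libraries such distances describe the libraries only.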

How the data were processed

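Raw read counts per gene were deposited by the authors for 2 RPS2 IP and 2 total RNA libraries, each with the exonic length of every gene. The file headers name featureCounts version 1.5.3, run in stranded mode on mm10. Reads of several loci or genes were taken as not counted, the default of that tool. Adapters were trimmed with cutadapt and reads aligned with STAR. No removal of PCR duplicates is named in the sources used here. Totals were 4899718 to 16460545 counts per library. GENCODE M21 gave a symbol for 31011 of 31053 identifiers.

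Analysis used R 4.3.3 and edgeR 4.0.16: filterByExpr, TMM, and a two-sided quasi-likelihood test (glmQLFTest after glmQLFit); p-values were adjusted by Benjamini-Hochberg over 12336 genes, with a threshold of 0.05. Ratios within a replicate are differences of log2 CPM with a prior count of 2. Alternatives used DESeq2 1.42.0, limma-voom 3.58.1, other scalings and filters, each library left out, and an offset from a smooth curve of GC content and length (mgcv 1.9.3).

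Per the study's methods, the IP and total RNA shared their samples, so replicate numbers pair the libraries; deviations from group means correlated at 0.733 between same-numbered libraries. The fit with that block leaves 1 residual degree of freedom, and its prior degrees of freedom were estimated as infinite. The 7 members, the comparison families, partners and markers were chosen with earlier results of these data known. Partners were named where called, and the nearest 3 profiles were named for the 3 members with most counts.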

Additional observations from a re-analysis of the deposited data

How the results depend on the processing

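Without the replicate block, 0 members were called under every scaling, filter, tool and library left out. Calls over all genes changed: 0 genes were lower in IP in the edgeR fit, against 14 with no filter on low counts, 5 with DESeq2 and 1 to 8 with a library left out (edgeR, with a lone library assumed to vary like the others). The replicate block moved the counts of genes called most, to 818 higher and 931 lower. It gave 769 and 699 with no filter, 878 and 926 with at least 10 counts in every library, 721 and 996 with median-ratio size factors, and 685 and 927 with limma-voom. It gave 283 and 878 with library size only, 158 and 382 with DESeq2, 591 and 736 with an offset for GC content, 644 and 968 with one for length, and 481 and 383 with both. With the block 2 members were called lower, also with no filter, with the count minimum, with median-ratio factors or with limma-voom. The number was again 2 with an offset for GC content or for length alone. It was 3 with library size only, 1 with DESeq2 and 0 with both offsets. DESeq2 with the block gave no adjusted p for Grik1, Grik2, Grik4 and Neto2, so these could not be called there. The cause of these shifts was not tested. The fits with another filter, median-ratio factors, limma-voom or a single offset under the block were added after the data were seen.

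Leaving out a library turned the unblocked log2 fold change of some members. It also leaves the same-numbered library without its partner, so these values hold the difference between the replicates as well. Within replicates, the ratios of Grik1 and Grik3 were below 0 and those of Neto1 above 0 in both. Those of Grik2 and Neto2 had opposite signs. Without IP replicate 2 the fold change was 0.21 for Grik1, 0.20 for Grik2 and 0.11 for Grik3. Without total RNA replicate 1 it was 0.21 for Grik1 and 0.0088 for Grik3. Without IP replicate 1 it was −0.48 for Grik1, −0.45 for Grik2, −1.15 for Grik3, −0.42 for Neto1 and −0.27 for Neto2. Without total RNA replicate 1 it was 0.83 for Neto1 and 1.12 for Neto2, and without total RNA replicate 2 it was −0.32 and −0.49. Grik5 ranged from −0.83 to −0.15 and Grik4 from −0.76 to −0.09, below 0 throughout. With the block and both offsets Neto1 was at −0.14 and Neto2 at −0.0011, and with the GC offset alone Neto1 was at −0.0345. The replicate 1 ratio of Grik1 was 0.0068 with library totals without Gm42418. The Grik5 share in total RNA was 71.1% with coding length, 81.6% with the longest transcript, 72.1% by counts and 80.0 to 80.6% in each library alone. The mean ratio of the AMPA to the kainate sum in total RNA was 1.09 per exonic length, 1.87 per coding length, 1.19 per longest transcript and 1.73 with no length. Depth limits Neto2 most.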
